A study of Mus musculus with 14 samples.

Results

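DP cells of tumor-bearing mice with a raised level of genome coverage were examined chromosome by chromosome. They were chosen by their own measured values: among the 450 cells that the authors' cell table classes as DP, those whose median deposited coverage over all bins of chromosomes 1 to 19 was 4.7 or more. Autosomal values are therefore given as a description, with no test. The rule found 54 cells (12% of DP cells, exact 95% interval 9.14 to 15.4%) of 648 cells in the series. They fell into 3 ranges, with 29 cells at 4.7 to 6.7, 9 cells at 6.7 to 8.7 and 16 cells above 8.7. The nearest DP cell below the limit had a median of 3.85 and the nearest above it 5.43, and no DP cell lay between 5.85 and 7.64 or between 7.86 and 9.24.

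The study isolated single cells by flow sorting on tumor and host markers and measured the DNA of each after MALBAC amplification. DP cells came from 9 samples (C1L, C1N, C1R, C2N, C2R, C3R, P1, P2 and P4) of blood and lung of female C57BL/6J mice, 6 to 8 weeks old, injected with fluorescently labelled B16F10 melanoma cells and given no drug. The same animals gave circulating tumor cells (CTC, 43 cells) and white blood cells (WBC, 46 cells). The controls were 1 sample each: 22 cells of the B16F10 line in culture, 21 WBC of naive mice, 18 CDP cells and 24 Duplike cells, the last 3 labelled as from naive female C57BL/6J mice of the same age. The sum of references nearest to each of these 18 CDP and 24 Duplike cells held a tumor part, unlike that of the naive WBC. These values go against cells of naive mice alone. Where the tumor part came from is not given, so whether the label is wrong cannot be told. The labels spell out neither DP, CDP nor Duplike, and they do not say whether a sample is 1 mouse. The p-values take samples as independent, which would not hold if samples shared a mouse. DNA coverage holds no expression markers against which the DP label could be checked. No raised DP cell shared all its values with another cell.

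A cell that carries the DNA of a host leukocyte and of a tumor cell has a coverage profile that is the sum of both, so that a gain of the tumor line is diluted by the host part. A tumor cell that has copied its genome keeps the proportions of the tumor line at a higher total. B16F10 is a metastatic melanoma line with an altered karyotype, which makes its chromosomes distinguishable from those of the C57BL/6J host. A sorted event with 2 genomes can be 1 hybrid cell or a pair of cells captured together, and total coverage cannot tell these apart.

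Each cell's values were divided by its autosomal median, giving a ratio in which the overall level drops out. The ratio profile was then expressed as a host part plus a tumor part, taking the mean naive WBC profile as host and the mean culture profile as tumor. The tumor share is the tumor part of that sum, with 0 for naive WBC and 1 for the culture. Host and tumor multiples give the same parts in units of the naive WBC median (1.83) and of the culture median (3.75) on the deposited scale. One host plus 1 tumor profile adds to a median of 5.57 with a share of 0.672, 2 host plus 1 tumor to 7.4 with 0.506, and 1 host plus 2 tumor to 9.32 with 0.804. A doubled culture genome would have a share of 1, and would stand at 7.5 only if the deposited level follows the amount of DNA. Whether it does is not known.

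The 29 cells at 4.7 to 6.7 had a tumor share of 0.669 ± 0.0474 (SD over 8 samples), close to that of 1 host plus 1 tumor profile. Sample means were 0.661 in C1L, 0.667 in C1N, 0.717 in C1R, 0.703 in C2R, 0.650 in C3R, 0.597 in P1, 0.621 in P2 and 0.735 in P4. Single cells ranged from 0.512 to 0.933. The fitted parts were 1.02 ± 0.141 host multiples and 1.00 ± 0.0758 tumor multiples (SD over 8 samples). These values rest on leaving out bins at the ceiling: with all bins kept, the share was 1.17, the host multiple -0.504 and the tumor multiple 1.66. The 5 whole-number sums considered were host, 2 host plus 1 tumor, 1 host plus 1 tumor, 1 host plus 2 tumor and tumor. The nearest over the 19 chromosome levels was 1 host plus 1 tumor in 20 cells, 2 host plus 1 tumor in 4, 1 host plus 2 tumor in 4 and tumor alone in 1. Some choices were close. A C2R blood cell had a root mean square distance of 0.0475 to 2 host plus 1 tumor and 0.0484 to 1 host plus 1 tumor. The cell nearest to tumor alone was still 0.130 away from it. All 18 CDP cells lay in the same range, with a share of 0.686 ± 0.0618 (SD over cells, 0.518 to 0.755). The 14 Duplike cells in this range had 0.648 ± 0.123 (SD over cells, 0.392 to 0.810), while another 9 Duplike cells lay at 2.7 to 4.7 with 0.915 ± 0.0631 (SD over cells, 0.767 to 0.969). DP cells at 2.7 to 4.7, by comparison, had a share of 0.947 ± 0.0442 (SD over 8 samples) and CTC 0.954 ± 0.0491 (SD over 5 samples).

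The 9 cells at 6.7 to 8.7 had a lower tumor share, 0.448 ± 0.0660 (SD over 5 samples). All of them stood nearer to 2 host plus 1 tumor than to any other of the 5 sums. No sum lay between that one, with a share of 0.506, and host alone, so this count cannot show a larger host part. The tumor share of these cells was 0.364 in C1L, 0.443 in C1N, 0.470 in C2R, 0.543 in C3R and 0.421 in P4. Single cells ranged from 0.296 to 0.543, and the culture cells from 0.822 to 1.1. The fitted parts were 2.34 ± 0.270 host and 0.929 ± 0.141 tumor multiples (SD over 5 samples). With all bins kept, the share was 1.08, the host multiple -0.334 and the tumor multiple 2.09. The place of the fitted share below the culture thus also rests on leaving out the ceiling bins. Chromosome and X levels are medians of bins and do not use this fit. The single Duplike cell in this range had a share of 0.453, with 2.31 host and 0.935 tumor multiples. No CDP cell, CTC, WBC or culture cell reached it.

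**Figure D1:**
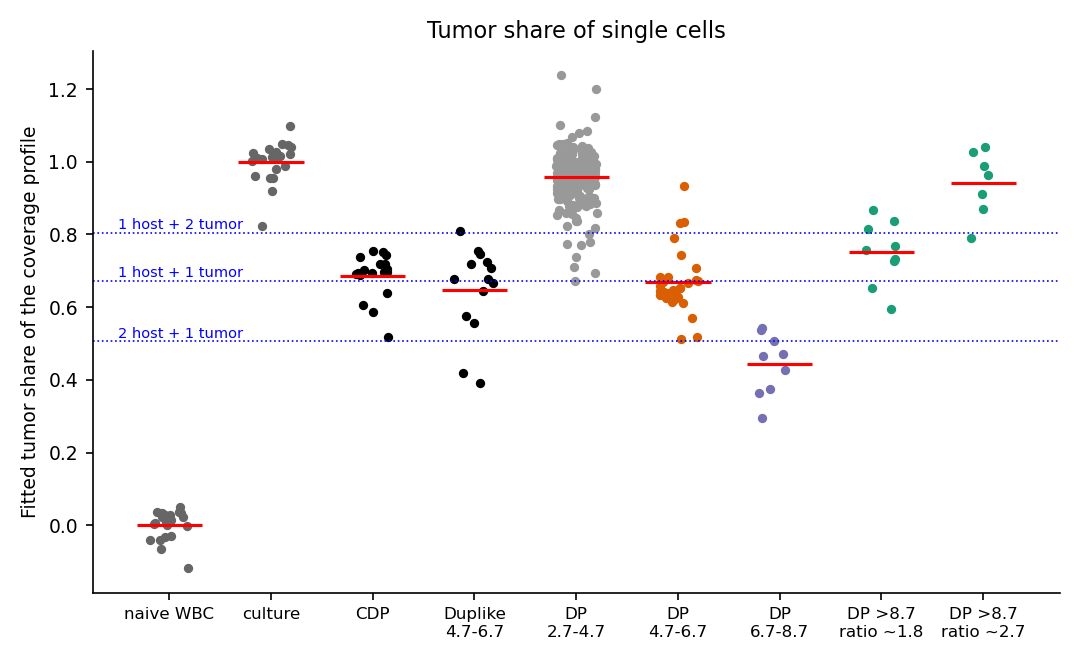
Tumor share fitted on autosomes (vertical axis, 0 for naive WBC and 1 for the B16F10 culture) for single cells (points) by class and coverage range, with the mean over cells as a red bar and the shares of 3 whole-number sums as dotted lines. DP cells at 4.7 to 6.7, CDP cells and the Duplike cells of that range scatter around 0.672, and DP cells at 6.7 to 8.7 lie between 0.296 and 0.543. The cells above 8.7 are split by their highest value over their median, and the shares of the 2 sets overlap (0.596 to 0.868 and 0.791 to 1.04).

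The 16 cells above 8.7 were of 2 kinds, told apart by the highest value in their profile. In most cells of the series the deposited values stop at exactly 10, including all 29 DP cells at 4.7 to 6.7. In 26 cells they go higher, and 25 of these are the raised DP cells above 6.7 (the other is the Duplike cell at 6.7 to 8.7). Among the cells above 8.7, 9 lower-ceiling cells from 5 samples had a highest value of 17.0 to 17.3, which is 1.75 to 1.81 times their median. The other 7, higher-ceiling cells from 4 samples, had a highest value of 24.3 to 26.6, which is 2.63 to 2.76 times their median. These ratios lie in the same bands as in DP cells at 4.7 to 6.7 (1.71 to 1.84) and in DP cells at 2.7 to 4.7 (2.60 to 2.84). This split was chosen after the values were seen.

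The lower-ceiling cells had a tumor share of 0.758 ± 0.0355 (SD over 5 samples), with single cells at 0.596 to 0.868. Of these 9 cells, 5 stood nearest to 1 host plus 2 tumor, 3 to 1 host plus 1 tumor and 1 to 2 host plus 1 tumor. Here too some choices were close, with distances of 0.0493 to 1 host plus 1 tumor and 0.0495 to 1 host plus 2 tumor in the C1N cell. The higher-ceiling cells had 0.963 ± 0.0601 (SD over 4 samples), with single cells at 0.791 to 1.04, and 5 of the 7 stood nearest to the tumor profile alone. Their host part was 0.188 ± 0.310 multiples and their tumor part 2.45 ± 0.202 (SD over 4 samples), against 1.27 ± 0.188 and 1.95 ± 0.0899 (SD over 5 samples) in the lower-ceiling cells. With all bins kept, the 16 cells together had a share of 1.14, a host multiple of -0.702 and a tumor multiple of 2.81. The higher-ceiling cells came from C1L, C1R, C2R and P2. The bin-to-bin noise was 0.216 ± 0.0293 (SD over 4 samples) in them and 0.184 ± 0.00857 (SD over 5 samples) in the lower-ceiling cells, and its part in the difference was not tested.

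The deposited scale of the cells above 6.7 therefore moves with their ceiling. When each cell was multiplied by 10 over its own highest value, the cells at 6.7 to 8.7 had medians of 5.34 to 5.68 and the lower-ceiling cells 5.52 to 5.72, next to the 5.43 to 5.85 of DP cells at 4.7 to 6.7. The higher-ceiling cells then had medians of 3.62 to 3.80, inside the range of DP cells at 2.7 to 4.7 (3.52 to 3.85). On that scale the parts were 1.67 host and 0.662 tumor multiples at 6.7 to 8.7, 0.742 and 1.13 in the lower-ceiling cells, and 0.0750 and 0.953 in the higher-ceiling cells. The tumor shares are the same on both scales. How the authors set the scale of a cell is not given in the sources used here. A larger amount of DNA and another scale factor therefore cannot be told apart above 6.7. The scale is equally unknown at 4.7 to 6.7. If the level of a cell was fitted to its profile, its level and multiples are not separate from its tumor share.

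**Figure D2:**
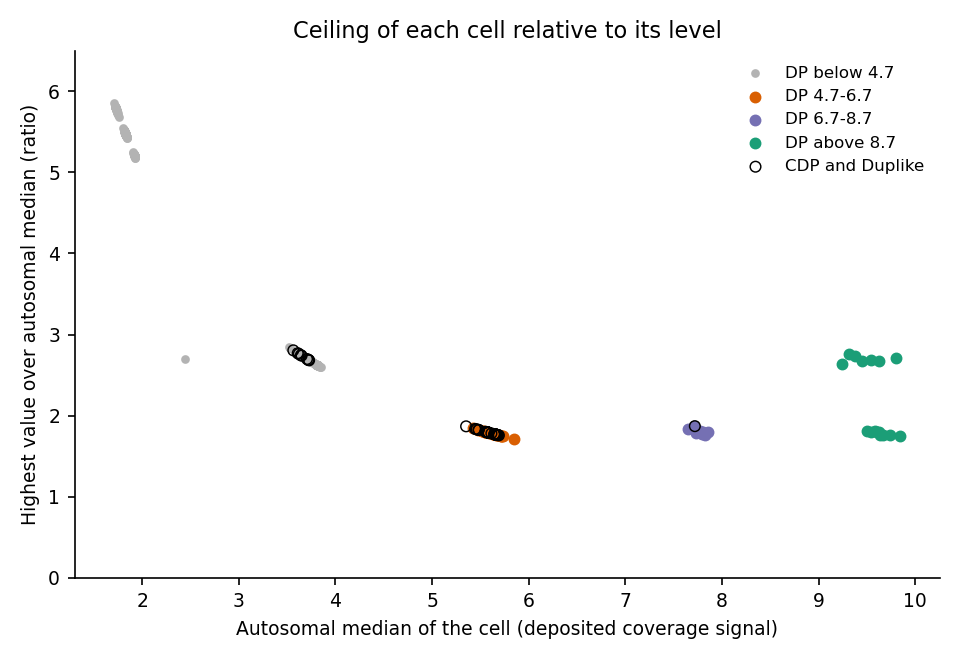
Highest deposited value of a cell over its autosomal median (vertical axis) against the autosomal median (horizontal axis, deposited coverage signal) for DP cells by range and for CDP and Duplike cells (open circles). The 9 cells at 6.7 to 8.7 and 9 of the 16 cells above 8.7 share the ratio of cells at 4.7 to 6.7, and the other 7 share that of cells at 2.7 to 4.7.

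Chromosome 6, which carries Met, Braf and Mitf and is gained in the culture, differed most between the references among the autosomes. Its ratio was 0.995 in the naive WBC profile and 1.47 in the culture profile. It was 1.33 ± 0.0795 at 4.7 to 6.7 (SD over 8 samples, single cells 1.15 to 1.51), 1.17 ± 0.0205 at 6.7 to 8.7 (SD over 5 samples, 1.1 to 1.27), 1.35 ± 0.0331 in the lower-ceiling cells (SD over 5 samples) and 1.39 ± 0.0697 in the higher-ceiling cells (SD over 4 samples). CDP cells stood at 1.34 ± 0.0457 and Duplike cells at 4.7 to 6.7 at 1.29 ± 0.106 (SD over cells). On the deposited scale the chromosome stood at 7.47 ± 0.359 at 4.7 to 6.7 (SD over 8 samples), against 1.83 in naive WBC and 5.51 in culture cells.

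Chromosomes 14 and 18 are lower in the culture than in the host, and both lay between the references in every set of raised DP cells except the higher-ceiling cells on chromosome 14. For chromosome 14 the reference ratios were 1.00 (naive WBC) and 0.747 (culture). The raised cells had 0.837 ± 0.0380 at 4.7 to 6.7 (SD over 8 samples), 0.875 ± 0.0264 at 6.7 to 8.7 (SD over 5 samples), 0.800 in the lower-ceiling and 0.710 ± 0.117 in the higher-ceiling cells (SD over 4 samples). The 7 higher-ceiling cells ran from 0.538 in a C1R cell to 0.859, and their mean over cells was 0.743, next to the culture. For chromosome 18 the references were 0.989 and 0.751, and the raised cells had 0.842 ± 0.0263, 0.854 ± 0.0351, 0.811 and 0.774 in the same order. CDP cells had 0.818 and 0.837 on chromosomes 14 and 18, and Duplike cells at 4.7 to 6.7 had 0.794 and 0.838.

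Chromosome 3 differed least between the references among the 4 chromosomes that differed by at least 0.1 (0.985 and 1.14). Its ratio was 1.08 ± 0.0661 at 4.7 to 6.7 (SD over 8 samples), 1.07 ± 0.0699 at 6.7 to 8.7 (SD over 5 samples), 1.11 in the lower-ceiling and 1.20 in the higher-ceiling cells. Single culture cells already ranged from 0.894 to 1.23. Over these 4 chromosomes a cell's level lay between the references in 108 of 116 values at 4.7 to 6.7, in 34 of 36 at 6.7 to 8.7 and in 32 of 36 in the lower-ceiling cells. It did so in 16 of 28 values of the higher-ceiling cells, in 66 of 72 of CDP cells and in 44 of 56 of Duplike cells at 4.7 to 6.7.

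**Figure D3:**
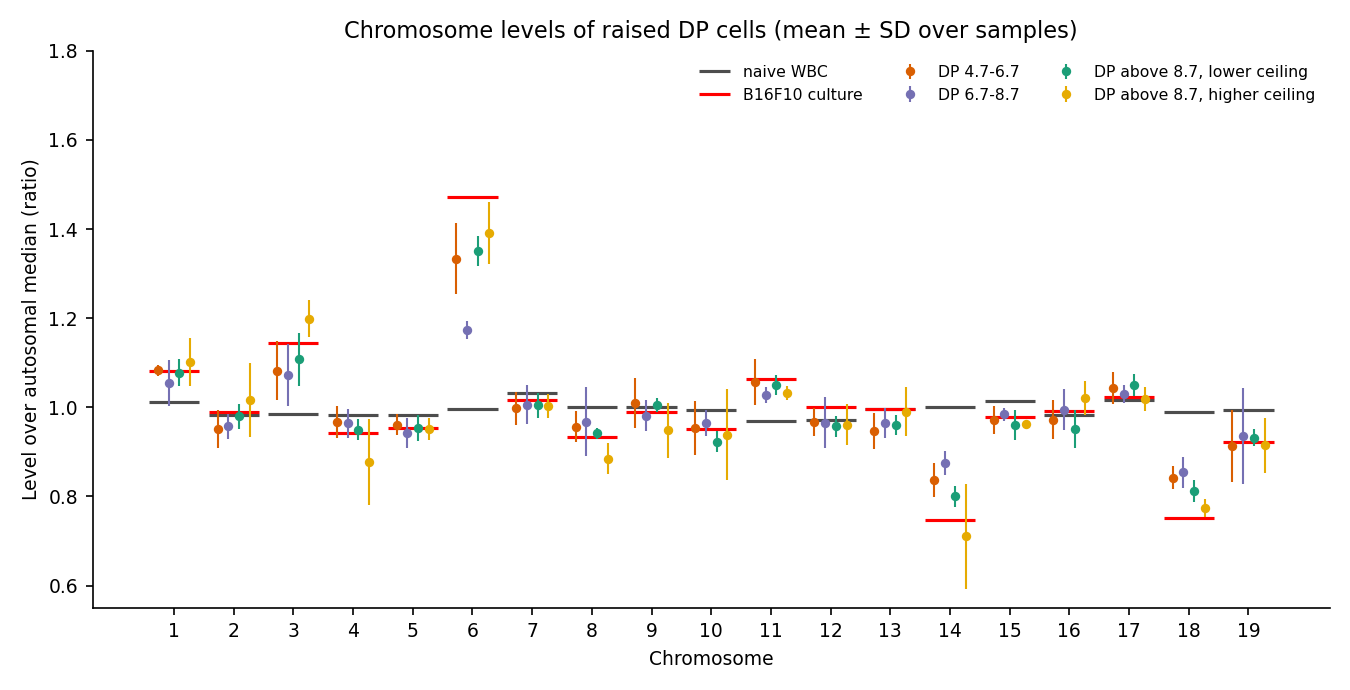
Level of each autosome over the autosomal median (vertical axis, ratio) by chromosome (horizontal axis), as the mean and SD over samples for 4 sets of raised DP cells, with the naive WBC and B16F10 culture references as bars. On chromosome 6 the cells at 4.7 to 6.7 (1.33) and at 6.7 to 8.7 (1.17) lie between the naive WBC (0.995) and the culture (1.47), and on chromosomes 14 and 18 all sets but the higher-ceiling cells on chromosome 14 do so.

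The other 15 autosomes had references within 0.1 of each other. There the mean levels of the cells at 4.7 to 6.7 ran from 0.913 on chromosome 19 to 1.08 on chromosome 1. Each of all 19 autosomes was also predicted from a fit on the other 18. Over the 19, the mean deviation over samples ran from -0.0470 on chromosome 13 to 0.0329 on chromosome 6 for the cells at 4.7 to 6.7. At 6.7 to 8.7 it ran from -0.0458 on chromosome 6 to 0.0243 on chromosome 3.

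Parts of chromosomes altered in the culture followed the same order. With altered stretches defined as at least 10 neighbouring kept bins whose culture and naive WBC ratios differ by 0.2 or more, the autosomes held 31, of which 11 are gains and 20 losses, together 621 Mb. The mean of the cells at 4.7 to 6.7 lay between the references in 31 of 31 stretches, as did those of the cells at 6.7 to 8.7, of the lower-ceiling cells, of CDP cells and of Duplike cells at 4.7 to 6.7. For the higher-ceiling cells this held in 17 of 31, and for CTC in 22 of 31. The median share of the culture's change that the stretches carried was 0.641 at 4.7 to 6.7, 0.438 at 6.7 to 8.7, 0.733 in the lower-ceiling and 0.985 in the higher-ceiling cells, against 0.678 in CDP, 0.649 in Duplike and 0.947 in CTC. Gains and losses gave like values at 4.7 to 6.7 (0.674 and 0.635) and at 6.7 to 8.7 (0.421 and 0.451).

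The gain on chromosome 1 is an example (chr1:20521986-64710395 in mm10), with a ratio of 1.00 in naive WBC and 1.44 in the culture. It stood at 1.29 ± 0.0348 at 4.7 to 6.7 (SD over 8 samples), 1.18 ± 0.0862 at 6.7 to 8.7 (SD over 5 samples), 1.31 in the lower-ceiling and 1.47 in the higher-ceiling cells. The loss at the end of chromosome 10 (chr10:104144978-130694993), with 0.983 and 0.722 in the references, stood at 0.844 ± 0.0496, 0.886 ± 0.0129, 0.802 and 0.751.

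Single cells departed from the fitted sum in their own ways. A chromosome deviated by more than 0.1 from its prediction in 80 of 1026 values of raised DP cells (7.80%), spread over 27 of the 54 cells. The share was 9.65% in CDP cells, 16.9% in Duplike cells at 4.7 to 6.7, 8.12% in DP cells at 2.7 to 4.7 and 13.1% in CTC. A lung cell of C1R had the highest tumor share at 4.7 to 6.7 (0.933) and deviated by over 0.15 on 8 chromosomes, among them chromosome 12 at 1.22 and chromosome 10 at 0.769. A blood cell of P4 had chromosome 4 at 0.610, chromosome 9 at 1.21 and chromosome 10 at 1.22, while another blood cell of P4 had chromosome 4 at 1.26. A blood cell of C2R had chromosome 16 at 1.36. At 6.7 to 8.7, a blood cell of C1N had chromosome 4 at 1.21 and chromosome 7 at 0.831, and above 8.7 a lung cell of P2 with a share of 1.03 had chromosome 2 at 0.711. These 6 cells were chosen after their values were seen.

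Genes named here and in the next paragraph lie in altered stretches, but each rests on 1 bin and not all followed their stretch. At 4.7 to 6.7, Pmel (0.940) and Cdk4 (0.939) stood nearer to naive WBC than their stretch of chromosome 10 did (0.844, references 0.983 and 0.722). Met (1.35) stood nearer to the culture than its stretch of chromosome 6 did (1.33, references 0.956 and 1.48). Akt1 on chromosome 12 and Pmel, Cdk4 and Mdm2 on chromosome 10 did not follow their whole chromosomes. Reference ratios (naive WBC and culture) were 0.970 and 1.00 for chromosome 12 and 0.993 and 0.952 for chromosome 10. Over all 4120 kept autosomal bins, 17.5% differed by at least 0.25 between the references (10.8% as gains and 6.75% as losses in the culture). Among those 721 bins the mean lay between the references in 96.3% at 4.7 to 6.7, in 97.8% at 6.7 to 8.7 and in 73.5% above 8.7, against 99.2% for CDP and 87.8% for Duplike cells at 4.7 to 6.7. The genes that follow are examples, and nothing is read from their counts. Of 10 melanocyte lineage genes, 3 had bins past that limit, and the mean of the cells at 4.7 to 6.7 lay between the references for all 3. Mitf, the master regulator of melanocytes (chr6:97807002-98021360), had 0.995 in naive WBC and 1.53 in the culture, and 1.37 ± 0.119 at 4.7 to 6.7 (SD over 8 samples) and 1.21 ± 0.0402 at 6.7 to 8.7 (SD over 5 samples). Dct, a melanin synthesis enzyme (chr14:118012790-118052246), had 1.14 and 0.648 in the references, and 0.813 ± 0.0764 and 0.878 ± 0.0708 in these 2 ranges. Pmel, a structural protein of melanosomes, had 0.982 and 0.724 in the references and 0.940 at 4.7 to 6.7. At 6.7 to 8.7 its mean of 1.02 lay outside the references, the exception among the 3.

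Of 11 growth signalling genes, 5 differed by at least 0.25 between the references, all as gains. Means of the cells at 4.7 to 6.7 and at 6.7 to 8.7 lay between the references for 5 of 5. Met, a receptor tyrosine kinase, had 0.928 and 1.39 in the references and 1.35 ± 0.107 at 4.7 to 6.7 (SD over 8 samples). Braf, a kinase of the MAP kinase pathway, had 0.803 and 1.20 in the references and 1.11 ± 0.0764. Akt1, a kinase of growth and survival signalling on chromosome 12, had 1.08 and 1.47 in the references and 1.28 ± 0.124. Above 8.7 the mean lay between the references for 3 of the 5. Of 15 cell cycle and tumor suppressor genes, 2 differed by at least 0.25, both as losses on chromosome 10. Means for both lay between the references in all 3 ranges. Smaller losses fell short of that limit, as in the bins of Apc (0.849 in naive WBC and 0.622 in the culture), Arid1a (0.802 and 0.586) and Rb1 (0.955 and 0.749). Cdk4, a kinase that drives entry into S phase, had 0.996 and 0.726 in the references and 0.939 ± 0.0766 at 4.7 to 6.7 (SD over 8 samples). Mdm2, a ubiquitin ligase for p53, had 0.984 and 0.707 in the references and 0.830 ± 0.0520.

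The X chromosome is lower in the culture than in the host. Its bins did not enter the choice of cells, but the X level is divided by the autosomal median that chose them, and the X level given by a cell's share rests on its autosomes. The X tests are therefore not fully independent of the values that chose the cells. The X level, the median ratio of X bins, was 0.987 in naive WBC and 0.406 in culture cells (means over cells). At 4.7 to 6.7 it was 0.657 in C1L, 0.662 in C1N, 0.627 in C1R, 0.610 in C2R, 0.644 in C3R, 0.668 in P1, 0.643 in P2 and 0.599 in P4. DP cells at 2.7 to 4.7 of the same samples had 0.445, 0.453, 0.459, 0.429, 0.442, 0.455, 0.441 and 0.468. The sample means of the ranges did not overlap. The X level was higher at 4.7 to 6.7 by 0.190 ± 0.0284 (SD over 8 samples), higher in each of the 8. An exact permutation test that flips the sign of each sample's difference (two-sided) gave p = 0.00781, the smallest that 8 samples can give, and an adjusted p = 0.0273 over 7 tests. Without any 1 of the 8 samples the difference was 0.186 to 0.198, with an adjusted exact p = 0.0547, since 7 samples cannot give less than 0.0156. CDP cells had 0.612 ± 0.0420 and Duplike cells at 4.7 to 6.7 had 0.60 ± 0.0923 (SD over cells).

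At 6.7 to 8.7 the X level was higher still, at 0.751 ± 0.0716 (SD over 5 samples), with 0.855 in C1L, 0.781 in C1N, 0.686 in C2R, 0.683 in C3R and 0.750 in P4. It exceeded the level at 4.7 to 6.7 by 0.117 ± 0.0623 in 5 of 5 samples (exact sign-flip p = 0.0625, the smallest that 5 samples can give, adjusted p = 0.109). This difference did not pass the threshold. Above 8.7 the X level was 0.498 ± 0.0607 (SD over 7 samples) and exceeded that at 2.7 to 4.7 by 0.0518 ± 0.0568 in 6 of 7 samples (exact sign-flip p = 0.0469, adjusted p = 0.109), which did not pass after adjustment. The difference was 0.0992 ± 0.0321 (5 of 5 samples) with the lower-ceiling cells alone and 0.00161 ± 0.0350 (2 of 4 samples) with the higher-ceiling cells alone.

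The tumor share fitted on autosomes gives a level that X should have if the cell were the fitted sum. At 4.7 to 6.7 the measured X level exceeded it by 0.0434 ± 0.0156 in 8 of 8 samples (exact sign-flip p = 0.00781, adjusted p = 0.0273), and without any 1 of them by 0.0399 to 0.0465 (adjusted exact p = 0.0547). With CTC and WBC of the tumor-bearing mice as references the excess was 0.0145, in 6 of 8 samples (exact sign-flip, adjusted p = 0.109). The same difference was 0.0257 in CDP cells, -0.00891 in Duplike cells at 4.7 to 6.7, -0.0299 in culture cells and -0.00866 in naive WBC (means over cells), so the references themselves do not stand at 0. At 6.7 to 8.7 the difference was 0.0236 ± 0.0413 over 5 samples and above 8.7 it was -0.0106 ± 0.0387 over 7 samples, neither past the threshold (exact sign-flip p = 0.3125 and 0.484).

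X is unevenly lower in the culture than in naive WBC of female mice, with a step at about chrX:108666651. The raised cells showed the step in diluted form. Before the step the mean ratio over cells was 0.980 in naive WBC and 0.501 in the culture, and after it 1.00 and 0.258. The cells at 4.7 to 6.7 had 0.721 before and 0.548 after the step (means over 8 samples), those at 6.7 to 8.7 had 0.803 and 0.691 (5 samples), the lower-ceiling cells 0.649 and 0.435, and the higher-ceiling cells 0.554 and 0.324. CDP cells had 0.687 and 0.524. Y bins stood at 0.0121 of the autosomal median at most in any raised DP cell, in samples from female mice.

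**Figure D4:**
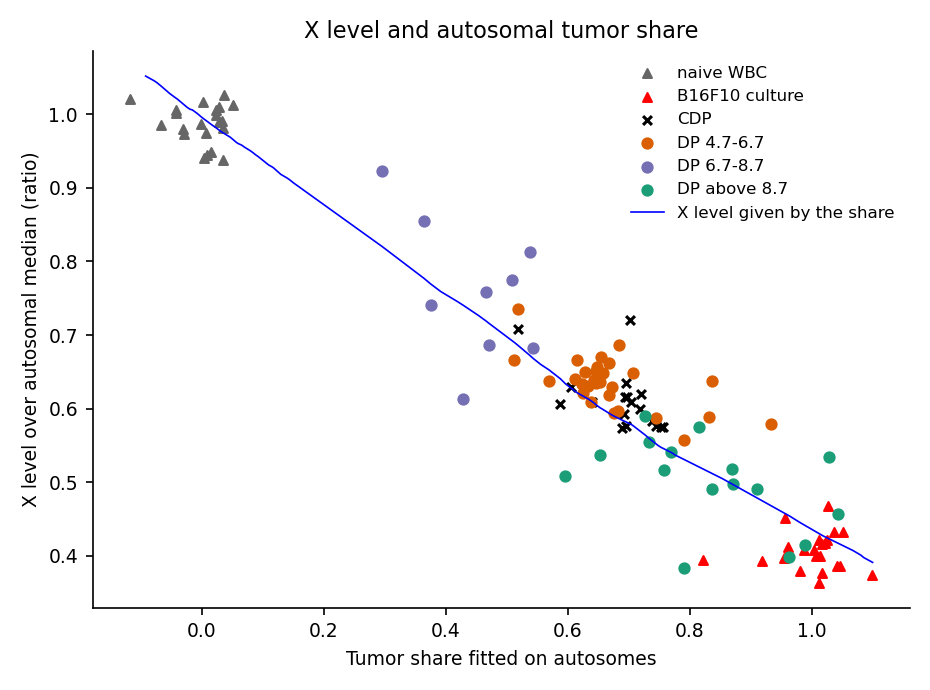
X level over the autosomal median (vertical axis, ratio) against the tumor share fitted on autosomes (horizontal axis) for single raised DP cells, CDP, culture and naive WBC cells (points), with the X level that each share gives as a line. The cells at 6.7 to 8.7 range from 0.613 to 0.923, reaching above all other raised cells (0.735 at most), and most cells at 4.7 to 6.7 lie above the line.

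Bins at 2 loci were near empty in one reference and not in the other. Both were picked in an earlier look at these data, and counts at them are a description. A bin over the T cell receptor alpha locus Tcra (chr14:52958219-53528636, 58 Trav variable segment genes) had a mean ratio of 0.00267 in naive WBC and at most 0.0238 in any WBC, but 0.433 in the culture. A bin in Il1rapl1, a large synaptic gene on X (chrX:87239364-87785367), had 0.982 in naive WBC, 0.0998 in the culture and at most 0.249 in any CTC. At Tcra the cells at 4.7 to 6.7 had a mean over cells of 0.310 (0.202 to 0.388), those at 6.7 to 8.7 had 0.224 (0.127 to 0.263), the lower-ceiling cells 0.377 and the higher-ceiling cells 0.440. At Il1rapl1 the means were 0.60 (0.40 to 0.797), 0.703 (0.549 to 0.860), 0.423 (0.299 to 0.535) and 0.148 (0.0854 to 0.228).

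Both signals stood above those limits together in 29 of 29 cells at 4.7 to 6.7, in 9 of 9 at 6.7 to 8.7 and in 9 of 9 lower-ceiling cells. Among the higher-ceiling cells 0 of 7 did, since their Il1rapl1 bin stayed in the range of CTC. CDP cells did so in 18 of 18 and Duplike cells at 4.7 to 6.7 in 14 of 14. At 2.7 to 4.7, 52 of 219 DP cells did, and below 2.7, 21 of 177 DP cells did, so the joint signal was not limited to the raised range.

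Raised cells were found in 8 of the 9 samples, with 4 of 40 DP cells in C1L, 6 of 36 in C1N, 7 of 57 in C1R, 11 of 64 in C2R, 6 of 81 in C3R, 9 of 93 in P1, 7 of 35 in P2 and 4 of 29 in P4. C2N had 0 of 15, which allows a share of up to 20% by a limit of 3 counts and 21.8% by the exact 95% interval. In blood 36 of 273 DP cells were raised (13.2%, exact 95% interval 9.41 to 17.8%) and in lung 18 of 177 (10.2%, 6.14 to 15.6%). By range, blood held 20, 8 and 8 cells and lung 9, 1 and 8.

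In the 5 samples with DP cells of both tissues the share differed in direction between samples. Blood and lung gave 3 of 33 and 1 of 7 in C1L, 6 of 22 and 0 of 14 in C1N, 6 of 23 and 1 of 34 in C1R, 9 of 39 and 2 of 25 in C2R, and 2 of 46 and 7 of 47 in P1. The mean was 8.02 ± 6.64% in lung and 18 ± 10.5% in blood (SD over 5 samples), a difference of -9.95 ± 17.0 percentage points that was negative in 3 of 5 samples (exact sign-flip p = 0.3125, adjusted p = 0.365). The smallest p that 5 samples allow is 0.0625.

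**Figure D5:**
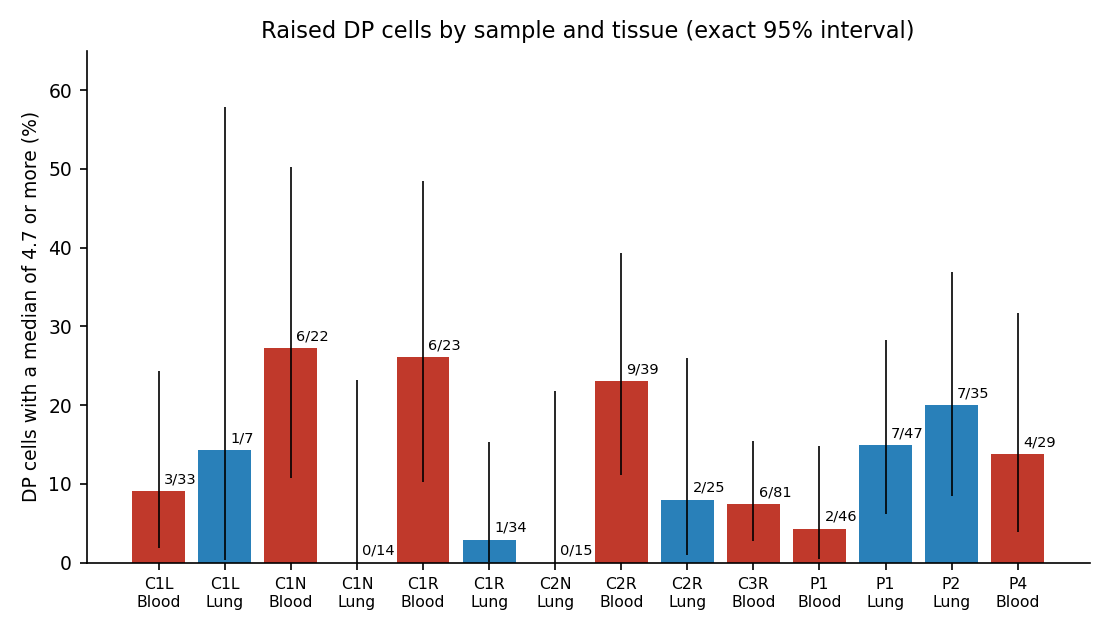
Share of DP cells with an autosomal median of 4.7 or more (vertical axis, percent, with exact 95% intervals) by sample and tissue (horizontal axis, blood in red and lung in blue), with raised over all DP cells above each bar. The share is higher in blood in C1N, C1R and C2R and higher in lung in C1L and P1.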

How the data were processed

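Genomes of single cells were amplified by MALBAC, and the deposited table holds a coverage signal per genome bin and cell that the authors normalised and scaled. The genome build was mm10, and reads were handled with BWA, SAMtools, Picard and Trim Galore, per the submitters' processing notes, which name further tools for RNA. The scaling, the bin settings and the ceiling are not given in the sources used here. Read counts per cell were not used, so the depth is unknown, and bin-to-bin noise stands in for it: the median absolute log2 difference of neighbouring autosomal bins after adding 0.1. Each cell's sample is the batch entry of the deposited cell table.

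Removing bins that stood at exactly 10 in 1% of cells or more kept 4120 of 4424 autosomal and 256 of 290 X bins. Every cell was divided by its autosomal median and fitted by least squares as a sum of the mean naive WBC profile and the mean culture profile. Chromosome levels are medians over kept bins, each set against a fit on the other 18 autosomes. Autosomal values are a description, because the autosomal median chose the cells. The 7 tests, on the X chromosome and on tissue shares, take the sample as the unit: signs of the differences were flipped in all possible ways (exact permutation, two-sided), with Benjamini-Hochberg adjustment at 5%. Intervals of shares are Clopper-Pearson at 95% and cover counting error only.

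The members and lists were chosen with earlier results of these data known. The genes named were those of 36 listed genes whose bin differed by at least 0.25 between culture and naive WBC means. Named besides these were Apc, Arid1a and Rb1, which fell short of that limit, and the Tcra and Il1rapl1 bins. Not all genes found by this rule are reported here. The fit was run on simulated sums of the same naive WBC and culture cells that make up the references. No ceiling was set on these sums, so the run cannot show how the ceiling acts on the fit. Alternatives changed the bins, references, fit, summary, noise, tissue and cell minimum, and left out each sample. The split of cells above 8.7 at a highest value of 2.2 times the median was chosen after seeing the data. Computation used scipy 1.17.1, pandas 2.3.3 and numpy 2.4.6 under Python 3.11.15, and plots matplotlib 3.10.9.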

Additional observations from a re-analysis of the deposited data

Results flagged for a closer look

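In 5 of 30 per-sample values checked, 1 sample lay apart from the rest of its group, and chance gives about 1 in 20 groups. For the cells at 4.7 to 6.7, C1N had a chromosome 3 level of 0.930 (other samples 1.06 to 1.14), a chromosome 6 level of 1.51 (others 1.27 to 1.35), a chromosome 14 level of 0.922 (others 0.800 to 0.847) and a chromosome 18 level of 0.903 (others 0.819 to 0.846). All 4 values come from the 1 blood cell that C1N holds in this range, whose chromosome 19 stood at 0.715. For the cells at 6.7 to 8.7, C3R had a chromosome 3 level of 1.20 (others 1.03 to 1.06), also from 1 cell.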

How the results depend on the processing

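The scale of each cell and the depth behind it are unknown, each control is 1 sample, and several sample means rest on 1 or 2 cells. With all bins kept, the tumor shares were 1.17, 1.08 and 1.14 in the 3 ranges, the host multiples -0.504, -0.334 and -0.702, the tumor multiples 1.66, 2.09 and 2.81, the X residual (X level minus the level given by the share) above 8.7 was 0.135, and the mean chromosome deviation of raised cells was 0.103 against 0.0540. That setting takes in the bins at the ceiling, which stands at 5.44 times the median in naive WBC, 2.66 times in the culture and 1.78 times at 4.7 to 6.7.

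With CTC and WBC of the tumor-bearing mice as references, the X residual at 4.7 to 6.7 was 0.0145. The X residual above 8.7 turned positive with a log2 slope (0.00941), with means over bins (0.0169), in cells below the median noise (0.0263) and with lower-ceiling cells alone (0.000902), and the cause was not tested. The X level difference and the X residual at 4.7 to 6.7 kept their direction but lost the call (adjusted p = 0.0547 by exact sign-flip tests) in cells below the median noise (0.184 and 0.0401), in blood cells (0.189 and 0.0477) and with at least 2 cells a sample (0.187 and 0.0399), and in lung cells, with 3 and 4 samples (0.207 and 0.0431, adjusted p = 0.365). Without each sample in turn they ranged from 0.186 to 0.198 and from 0.0399 to 0.0465. Higher-ceiling cells alone gave a share of 0.963 and multiples of 0.188 host and 2.45 tumor above 8.7. Scaling to a highest value of 10 gave 1.67 host and 0.662 tumor multiples at 6.7 to 8.7 and 1.04 tumor multiples above 8.7.

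Over all alternatives, 174 values of main results kept their direction and side of the threshold or stayed within the spread, 25 lost the call, 13 moved further and 8 changed sign. Lower limits of 4.5 and 4.9 chose the same cells. The planned measures other than coverage were not run, since the cell table holds none. Lung cells gave no value at 6.7 to 8.7.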

Other observations

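At 4.7 to 6.7 the mean tumor share was 0.676 ± 0.0347 in blood (SD over 7 samples) and 0.690 ± 0.164 in lung (SD over 4 samples). The lung mean rests on the 1 lung cell of C1R at 0.933, against 0.662 in its blood. The other lung means were 0.633 in C2R, 0.575 in P1 and 0.621 in P2, and the blood of C2R and P1 had 0.713 and 0.641. The nearest sum was 2 host plus 1 tumor in 3 of 9 lung cells and in 1 of 20 blood cells. Above 8.7 the share was 0.871 ± 0.123 in blood (SD over 5 samples) and 0.835 ± 0.0937 in lung (SD over 3 samples). These differences were not tested.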
